A study of Prunus persica with 24 samples.

Results

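Peach (Prunus persica) flesh stored at 35 °C was compared with flesh stored at 25 °C late in storage, on days 5, 6 and 7 after the start of storage. These days hold 12 of the 24 libraries of the series, 2 for each temperature and day. All fruit had first been kept at 5 °C for 2 days and was then divided at random between 35 °C, the high temperature, and 25 °C, the common one. Each pair of libraries stands in the deposited tables as 1 FPKM value per gene (fragments divided by transcript length in kilobases and by the mapped total), so the comparison rests on 6 of 12 columns, 3 at 35 °C and 3 at 25 °C, paired by day. The labels name no cultivar, no number of fruit and no source orchard, and they do not say whether the 2 libraries of a pair came from separate fruit.

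Peach is a climacteric fruit, in which a burst of the hormone ethylene accompanies ripening and the flesh softens as pectin, the glue between its cells, is taken apart. Fruit held long at room temperature passes from ripening into senescence. Storage well above the usual ripening temperature is known to disturb ripening in peach and to call up heat shock proteins, which keep other proteins folded. The tables list genes by identifier alone, and 0 of 26873 identifiers matched the RefSeq gene table used here, so no gene below is assigned to any of these pathways. For the same reason the labelled tissue, flesh, was not checked against tissue markers. In bulk tissue, fewer cells of a type and less RNA per cell cannot be told apart.

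Read depth is unknown, because the tables hold no counts. The FPKM of the 3 late columns at 35 °C summed to between 651850 and 741229, and those at 25 °C to between 652258 and 844675. At 35 °C, between 7404 and 7800 identifiers were listed at 0 on a late day, against between 8278 and 8614 at 25 °C. All 3 columns at 35 °C thus listed fewer genes at 0 than any late column at 25 °C. All FPKM values below were rescaled between columns, and changes are differences of log2(FPKM + 1), which understate the change of low genes.

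Late in storage, 695 genes differed between the temperatures by more than the spread of their difference over the 3 days, 350 higher and 345 lower at 35 °C. They were called by limma at a Benjamini-Hochberg adjusted p under 0.05 and make up 4.81% of the 14435 genes tested, 2.42% higher and 2.39% lower. The differences were large: 301 of the genes called higher and 314 of those called lower were at least 2-fold apart on average, and 42 and 84 were at least 4-fold apart. Among genes called higher the median log2 difference was 1.27 (quartiles 1.05 and 1.61), and among genes called lower it was -1.53 (quartiles -1.99 and -1.16). The median over all tested genes was 0.03. The calls rest on these same values.

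Before adjustment, 3547 genes had a p under 0.05, where 722 are expected if no gene differs. The limma adjusted p of the called genes ran from 0.0150 to 0.0499. The call is therefore close to its threshold. Without a filter on low values 0 genes were called (4363 before adjustment), and with all 12 columns of the series in the fit, so that the early days also set the spread, 181 were called, 55 higher and 126 lower. The p-values measure spread between days, not between fruit, and each temperature lies in a table of its own.

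**Figure D1:**
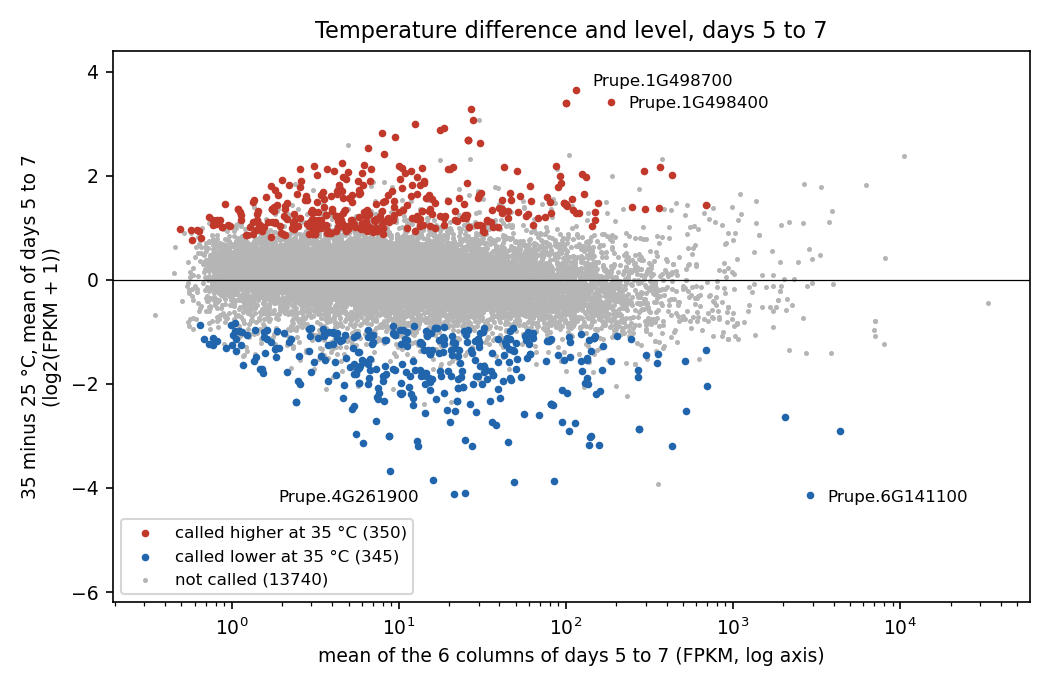
Each point is 1 of the 14435 tested genes, with its mean level over the 6 late columns (FPKM, log axis) against its mean difference, 35 minus 25 °C, on days 5 to 7 (log2(FPKM + 1)). The 350 genes called higher at 35 °C and the 345 called lower lie mostly beyond a difference of 1 in either direction, and the 4 named genes lie at the extremes, between -4.14 and 3.64.

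The largest rise was that of Prupe.1G498700. It stood at 243 FPKM on day 5, 334 FPKM on day 6 and 67.8 FPKM on day 7 at 35 °C, against 14.6 FPKM, 14.7 FPKM and 10.9 FPKM on the same days at 25 °C. Every late value at 35 °C was above every late value at 25 °C, and the smallest gap was on day 7, when the level at 35 °C was the lowest of the 3. The log2 differences on days 5, 6 and 7 were 3.97, 4.42 and 2.53. Their mean was 3.64 ± 0.38 (SE of the limma fit, limma adjusted p = 0.0166). Limma draws each SE towards the spread of other genes, so it is not the plain SE of the 3 daily differences. On day 1 its level had been 104 FPKM at 35 °C, against 124 FPKM at 25 °C. The late levels at 25 °C were thus far below the day 1 level, while on days 5 and 6 at 35 °C the gene was above it.

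Prupe.1G498400, the second largest rise, followed the same course at a higher level. Its values at 35 °C were 433 FPKM on day 5, 542 FPKM on day 6 and 73.9 FPKM on day 7, against 19.1 FPKM, 30.2 FPKM and 22.3 FPKM at 25 °C. The log2 difference was 4.43 on day 5, 4.12 on day 6 and 1.68 on day 7. The mean was 3.41 ± 0.54 (SE of the limma fit, limma adjusted p = 0.0345). Without day 5 both of these genes lost the call, at a limma adjusted p of 0.0524 for Prupe.1G498700 and 0.0804 for Prupe.1G498400, and Prupe.1G498400 lost it with all 12 columns in the fit, at 0.0704.

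The 5 identifiers with the largest called rise all lie within 6 successive identifiers of the tables. Of the 6, 5 passed the filter, and these are the same 5 identifiers. That all 5 were called higher thus follows from how the stretch was chosen. Their log2 differences lay between 3.97 and 4.43 on day 5, between 3.99 and 4.42 on day 6 and between 1.42 and 2.53 on day 7. On day 1 they lay between -1.16 and 0.11, on day 2 between 3.04 and 4.11 and on day 3 between 2.57 and 2.92. The temperatures therefore stood apart by day 2 in all 5 members. In each of the 5 the gap was smaller on day 3 than on day 2, larger again on days 5 and 6, and smaller on day 7. A pair of the 5 has identical values in all columns and counts as 1 measurement. Copies of a gene can share reads, so the levels of single members of this stretch are uncertain.

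The largest fall was that of Prupe.6G141100, an abundant transcript. At 35 °C it stood at 362 FPKM, 293 FPKM and 231 FPKM on days 5, 6 and 7, against 8418 FPKM, 4553 FPKM and 3550 FPKM at 25 °C. Levels declined over the late days at both temperatures, and the log2 difference stayed between -4.54 and -3.94. Its mean was -4.14 ± 0.31 (SE of the limma fit, limma adjusted p = 0.0154).

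Prupe.4G261900 had the second largest fall on this scale and was at a low level at 35 °C on each late day. It was listed at 1.73 FPKM on day 5, 1.33 FPKM on day 6 and 1.18 FPKM on day 7 at 35 °C, against 30.3 FPKM, 46.1 FPKM and 47.3 FPKM at 25 °C. The mean log2 difference was -4.11 ± 0.24 (SE of the limma fit, limma adjusted p = 0.0150). Its day 1 level was 4.53 FPKM at 35 °C, against 11.5 FPKM at 25 °C. The late level was below that of day 1 at 35 °C and above it at 25 °C. With all 12 columns in the fit Prupe.6G141100 and Prupe.4G261900 lost the call, at limma adjusted p of 0.0569 and 0.0521. The order of these falls depended on the pseudocount. With a pseudocount of 0.1 the mean log2 difference was -4.76 for Prupe.4G261900 and -4.15 for Prupe.6G141100. The late mean FPKM at 25 °C was 29.1 times that at 35 °C for Prupe.4G261900 and 18.6 times for Prupe.6G141100.

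**Figure D2:**
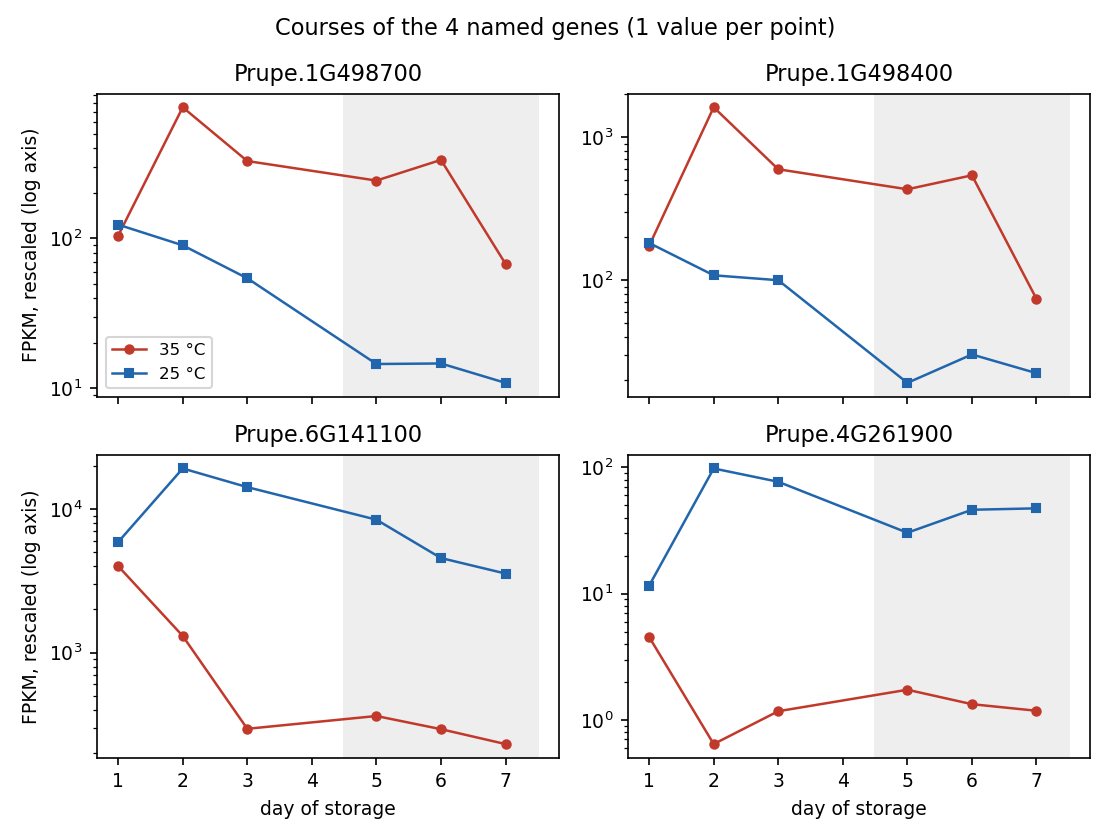
Rescaled FPKM (log axis) of the 4 named genes on each day of storage at 35 °C (circles) and 25 °C (squares), 1 value per point and no error; the shaded days are days 5 to 7. The upper genes lie above their 25 °C values from day 2 on, with the smallest late gap on day 7, and the lower genes lie below theirs on every day shown.

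The single days were then compared, where each gene has 1 value at each temperature and no test is possible. On day 5, 864 genes were at least 2-fold higher at 35 °C (5.99% of those tested) and 1118 were at least 2-fold lower (7.75%). The numbers were 831 higher (5.76%) and 886 lower (6.14%) on day 6, and 904 higher (6.26%) and 727 lower (5.04%) on day 7. Genes lower at 35 °C thus became fewer on each later day, while the number of higher genes varied little. The balance was 864 to 1118 on day 5 and 904 to 727 on day 7. It depended in part on the processing. Unscaled, the values of day 6 gave 946 genes above and 792 below. A pseudocount of 0.1 gave 1413 above and 1388 below on day 5.

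Most genes at least 2-fold apart on a late day did not reach that limit on all 3 days. With 1 value per temperature and day, falling short of the limit does not show that a difference had ended. Of 3521 genes at least 2-fold apart on some late day, 2152 were so on 1 day, 929 on 2 days and 440 on all 3, 384 of these in one direction throughout. On each of the 3 days 167 genes (1.16%) lay at least 2-fold above and 217 (1.5%) at least 2-fold below their level at 25 °C. A pseudocount of 0.1 raised these numbers to 340 above and 310 below, which turned the balance of directions. Limma called 163 of the 167 and 214 of the 217 in the same direction, where 2.42% and 2.39% of all tested genes were called. The 2-fold limit and the calls use the same late values, so this overlap is no separate support. Among the 929 and 440 genes, 158 changed sides, being 2-fold or more above the 25 °C level on one late day and 2-fold or more below it on another.

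The gap between the temperatures was wider than the gap between late days at 35 °C and partly overlapped that between late days at 25 °C. The median absolute log2 difference over genes was 0.42 between 35 and 25 °C on day 5, 0.37 on day 6 and 0.35 on day 7. Within 35 °C it lay between 0.24 and 0.26 for the 3 pairs of late days. Within 25 °C it was 0.38 between days 5 and 6, 0.24 between days 6 and 7 and 0.31 between days 5 and 7. The step from day 5 to day 6 at 25 °C was narrower than the gap between the temperatures on day 5 and wider than that on days 6 and 7. It held 1322 genes at least 2-fold apart against 702 for the same step at 35 °C. Against flesh of day 5 at 35 °C, the number of genes at least 2-fold apart was 1434 for day 3, 1982 for day 5, 1569 for day 6 and 1519 for day 7 at 25 °C, so that the column of the same day was the farthest of the 4. Against day 6 at 35 °C the numbers were 1699, 2251, 1717 and 2081, and against day 7 they were 1530, 1617, 2011 and 1631. The nearest 25 °C column by this count was that of day 3 for each late day at 35 °C. By the median absolute log2 difference it was day 6 for day 5 at 35 °C (0.32, against 0.35 for day 3), and day 3 for days 6 and 7 (0.36 and 0.33). These are counts over genes between single columns, with no test.

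When the late differences had arisen was asked of days 1, 2 and 3, whose columns had no part in the late test. They were absent or small on day 1 and mostly present by day 2. The 350 genes called higher had a median log2 difference of 0.01 on day 1, 1.26 on day 2 and 1.42 on day 3. For the 345 genes called lower these medians were -0.21, -1.10 and -1.24. On day 1, 8 of the genes called higher were already at least 2-fold higher, or 2.29%, where the share of all tested genes was 0.526%. On day 2 it was 223 genes, or 63.7%, against 9.43% of all tested genes, and on day 3 it was 242 genes, or 69.1%, against 7.02%. Of the genes called lower, 26 (7.54%) passed this limit on day 1, 185 (53.6%) on day 2 and 212 (61.4%) on day 3, against 3.24%, 11.3% and 7.16% of all tested genes. Across days 5, 6 and 7 the medians were 1.17, 1.31 and 1.30 for genes called higher and -1.41, -1.49 and -1.55 for genes called lower, which are the values that made the calls.

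Genes at least 2-fold higher on each late day had more often differed on both day 2 and day 3 than genes at least 2-fold lower, as a count without a test. Among the 167 higher genes, 118 (70.7%) had been at least 2-fold higher on both days, where 4.03% of all tested genes were. Among the 217 lower genes it was 113 (52.1%), against 4.53% of all tested genes. With a pseudocount of 0.1 the shares were 66.8% of 340 higher genes and 56.1% of 310 lower genes. Only 13 of the higher genes had been under 2-fold higher on both days, and 39 of the lower genes under 2-fold lower on both. On all of days 1, 2 and 3, 8 higher genes and 33 lower genes had been less than 2-fold apart, so that they reached the limit only after day 3. With 1 value per temperature and day, this does not show when their difference began.

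The reverse view took genes by days 2 and 3 alone and followed them to the late days. At least 2-fold higher at 35 °C on both day 2 and day 3 were 603 genes, of which 582 passed the late filter. Their median log2 difference was 0.82 on day 5, 1.05 on day 6 and 0.90 on day 7. Limma called 180 of them (30.9%) higher, against 2.42% of all tested genes, and 0 lower, against 2.39%. In the late mean, 18 of the 582 (3.09%) had the opposite sign. Of all 14435 tested genes, 7509 were higher at 35 °C on day 5, 7360 on day 6 and 7565 on day 7. At least 2-fold lower on both days were 665 genes, of which 654 passed. Their median was -0.97 on day 5, -0.86 on day 6 and -0.61 on day 7. Limma called 146 of them (22.3%) lower, against 2.39% of all tested genes, and 1 higher, against 2.42%. In the late mean, 43 of them (6.57%) had the opposite sign. The genes of this lower group lay closer to their 25 °C values on day 7 than on day 5, while the higher group shows no such course. With quantile normalization the lower group had medians of -0.86, -1.02 and -0.69, so that day 6 was then the widest. The medians on days 2 and 3 are raised in size by the choice of genes and are not set against the late ones.

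**Figure D3:**
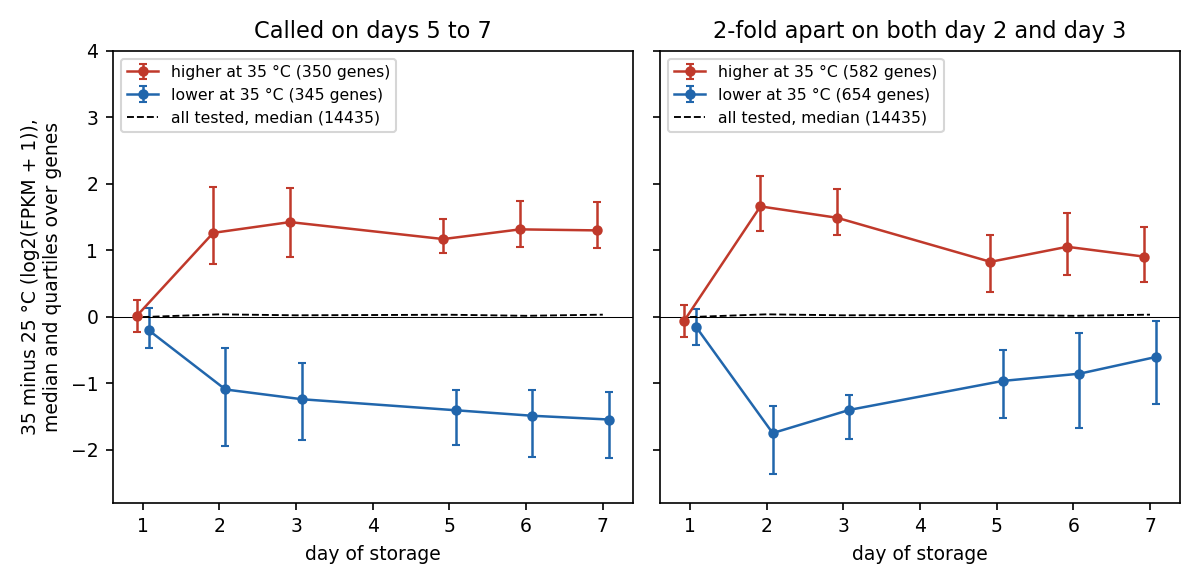
Difference between 35 and 25 °C (log2(FPKM + 1)) on each day, as median and quartiles over genes, for genes called on days 5 to 7 (left) and genes at least 2-fold apart on both day 2 and day 3 (right). Genes called late had medians of 0.01 and -0.21 on day 1 and of 1.26 and -1.10 on day 2. Genes lower on days 2 and 3 came to a median of -0.61 on day 7.

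Whether the temperature difference late in storage was another than on days 2 and 3 was tested by itself. The test found no gene, with 0 of 14435 called by limma (0%). Before adjustment 1500 genes had a p under 0.05, where 722 are expected if no gene differs, and the smallest limma adjusted p was 0.306. The same test against day 1 gave 0 limma calls and 0.326 as the smallest adjusted p. Before adjustment 1148 genes had a p under 0.05, against the same 722 expected. Day 1 gives a single pair of columns. Both counts depended on single days. Against day 1, 111 genes were called without day 6 (82 towards a higher and 29 towards a lower level at 35 °C) and 116 without day 7 (75 and 41). Against days 2 and 3, 5 genes were called without day 7, all 5 towards a higher level at 35 °C. The 0 calls do not show that the differences stayed the same.

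For Prupe.4G261900 the late difference was 1.43 ± 0.40 smaller in size on the log2 scale than on days 2 and 3 (SE, limma adjusted p = 0.408), when it had been -5.91 and -5.16. For Prupe.6G141100 the late difference was likewise smaller in size, by 0.59 ± 0.63 (limma adjusted p = 0.769). For Prupe.1G498700 it was larger in size, by 0.83 ± 0.57 (limma adjusted p = 0.638). For Prupe.1G498400 it was also larger, by 0.18 ± 0.86 (limma adjusted p = 0.953). None of the 4 passed this test.

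The late difference can come about by a change at 35 °C, by a change at 25 °C or by both, and the day 1 column of each temperature was used to describe this. Of the 350 genes called higher, 140 (40%) were at least 2-fold above day 1 at 35 °C and within 2-fold of it at 25 °C. Another 65 (18.6%) were within 2-fold of day 1 at 35 °C and at least 2-fold below it at 25 °C. In 101 genes both temperatures stayed within 2-fold of day 1, in 31 both were at least 2-fold below it, in 7 the level was above it at 35 °C and below it at 25 °C, and in 6 both were above it. The largest of these classes was thus the one above day 1 at 35 °C and near it at 25 °C. Of the genes not called, 5.17% fell in that class and 2.61% in the class of the 65. Both temperatures were below day 1 in 5.44% of genes not called and above it in 1.99%. The shares among genes called higher were 8.86% and 1.71%.

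Of the 345 genes called lower, 117 (33.9%) were at least 2-fold below day 1 at 35 °C and within 2-fold of it at 25 °C, and 82 (23.8%) were within 2-fold of it at 35 °C and at least 2-fold above it at 25 °C. In 74 genes both temperatures stayed within 2-fold, in 43 both were below day 1 and in 18 both were above it. A further 6 genes were below day 1 at 35 °C and above it at 25 °C, and 5 were above day 1 at 35 °C and within 2-fold of it at 25 °C. Both temperatures stayed within 2-fold of day 1 in 80.4% of the 13740 genes that were not called. Of these 13740, 2.98% fell in the class of the 117 and 1.19% in that of the 82. Both temperatures were below day 1 in 5.44% of them and above it in 1.99%. The shares among genes called lower were 12.5% and 5.22%. The median change since day 1 was 0.85 at 35 °C and -0.40 at 25 °C for genes called higher, and -0.93 at 35 °C and 0.43 at 25 °C for genes called lower. These counts share their late columns with the calls and carry no test.

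**Figure D4:**
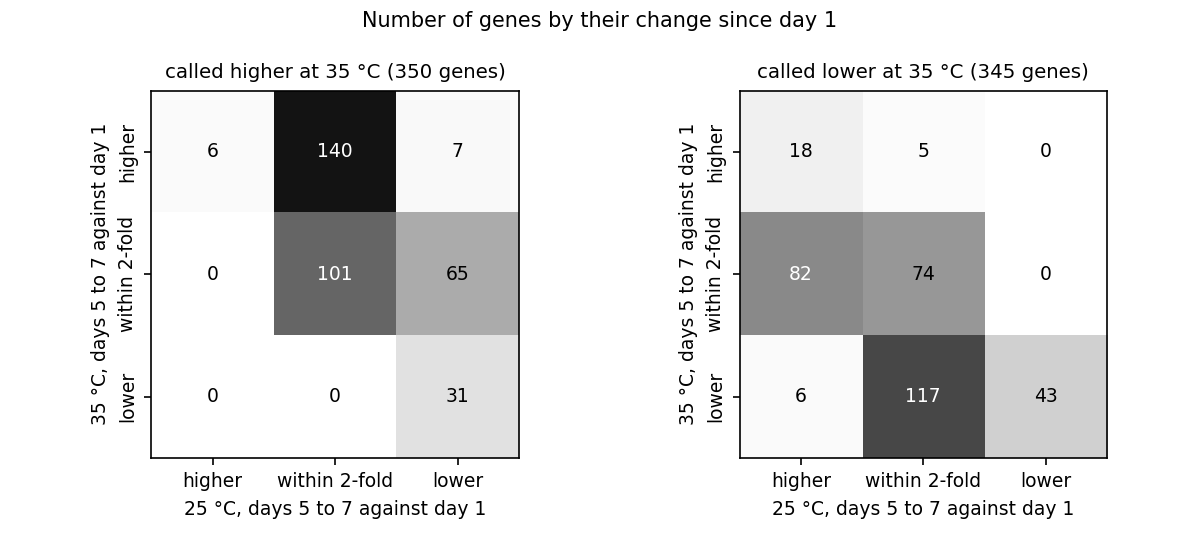
Number of genes by their change from day 1 to the mean of days 5 to 7 at 35 °C (rows) and at 25 °C (columns), with a change of at least 2-fold counted as higher or lower, for the 350 genes called higher and the 345 called lower at 35 °C; darker cells hold more genes. The fullest cells hold 140 genes that lay above day 1 at 35 °C alone and 117 that lay below it at 35 °C alone, by this 2-fold limit and without a test.

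The direction of the calls differed with the level of the genes. Of the genes with a late mean under 5 FPKM, 150 were called higher and 74 lower. Between 5 and 50 FPKM, 156 were higher and 196 lower, and between 50 and 500 FPKM, 43 were higher and 68 lower. From 500 FPKM upwards, 1 was higher and 7 were lower. In each class between 4.57% and 5.17% of the genes were called, close to the 4.81% of all genes. After quantile normalization the share was 9.39% of 181 genes from 500 FPKM upwards, and between 4.46% and 4.83% in the lower classes. The balance of the classes depended on the scaling. After quantile normalization, 102 genes were higher and 105 lower in the lowest class, 156 and 188 in the next, 59 and 47 in the third and 11 and 6 among the most abundant. Without rescaling, the same 4 classes gave 170 and 75, 181 and 187, 47 and 66, and 1 and 6. With quantile normalization the excess of higher genes in the lowest class was therefore gone, and the balance turned round in both upper classes. More genes were also listed at 0 at 25 °C than at 35 °C on each late day, and the part of this in the balance among low genes was not tested.

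Called genes stood next to another called gene in the tables more often than all tested genes did, as shares without a test. An adjacent identifier was called in the same direction for 37 of the 350 genes called higher (10.6%) and for 55 of the 345 called lower (15.9%). Of all tested genes, 2.87% stood next to a gene called higher and 3.03% next to a gene called lower. Part of these neighbours are a single measurement, since 14 of the 37 and 18 of the 55 had values identical to those of the called neighbour. Of all 14435 tested genes, 554 had values identical to those of another identifier. Among the 695 called genes it was 46, a larger share.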

How the data were processed

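Libraries were directional and made from RNA freed of ribosomal RNA, per the labels' protocols, and sequenced on an Illumina machine. Values are FPKM made by the authors, per the file headers, in 1 table for each temperature, with 1 column for the 2 libraries of a group. The submitters' processing notes list Cufflinks 2.1.1, TopHat2 2.0.10, Bowtie2 2.1.0, FastQC 0.10.1 and SAMtools 0.1.18, with no role stated. Genome build and the way of combining libraries: not given in the sources used here. Depth and counting error are unknown.

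Rows that share an identifier were added up, and all 12 columns were rescaled by median-of-ratios factors over 12194 identifiers. Tested were 14435 identifiers with at least 1 FPKM in at least 2 of the 6 late columns. A further 985 passed the same limit only over all 12 columns. Differences of log2(FPKM + 1) were fitted in R 4.3.3 with limma 3.58.1 (eBayes, trend), with day as a block. Benjamini-Hochberg adjustment was over all tested genes. The fits had first been run on simulated data with independent noise in each column, which does not check the calls on the real columns. The difference between periods was a late-by-temperature term over days 2 to 7, or over days 1, 5, 6 and 7. The named genes are the 2 largest rises and the 2 largest falls among called genes with one sign on the 3 days and a mean of at least 5 FPKM where higher. The comparison and these rules were chosen with earlier results of these data known. Gene lists rest on product descriptions, which no identifier carries, and were not used.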

Additional observations from a re-analysis of the deposited data

How the results depend on the processing

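Leaving out 1 late day in the fit against day 1 was added after the data were seen, as were the splits of single days and the other settings for genes followed between days 2 and 3 and the late days. By replicate number, no paired analysis was possible because 1 column stands for both libraries. The temperatures were paired by day instead, and 1029 genes were called without the day term. The 695 late calls became 0 with no filter, 449 where the mean had to reach 5 FPKM, and 181 with all 12 columns in the fit, and lay between 599 and 1029 in the other alternatives. Calls shared with the 695, in the same direction, numbered 680 as deposited, 599 with quantile normalization, 620 without the day term, and 445, 440 and 495 without day 5, 6 and 7. Genes at least 2-fold apart on each late day numbered 384, and 650 with a pseudocount of 0.1 (340 higher, 310 lower). The 0 calls for late minus day 1 became 111 without day 6 and 116 without day 7, and those for late minus days 2 and 3 became 5 without day 7, and were 0 in the other alternatives run. The direction of the 4 named genes held throughout, but with no filter none of them was called (limma adjusted p between 0.0579 and 0.0907). The causes were not tested. Alternatives for gene lists were not run.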
